A study of Mus musculus with 13 samples.

Results

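The 10 genes described here belong to the interleukin-1 (IL-1) family and the machinery that processes and receives it: the ligands Il33, Il1a, Il1b and Il18, the receptor antagonist Il1rn, the receptor chains Il1rl1 (ST2), Il1r1 and Il1rap, and the inflammasome genes Casp1 and Nlrp3. They were taken by gene name from a table of 53832 expression entries, in which each of the 10 had a single entry. The values are TPM, a relative transcript abundance scaled for gene length and library total. The 13 bulk RNA-seq libraries came from poly(A) RNA of the right cortex of perfused mice: 4 libraries from APP/PS1 mice given trazodone, 3 from APP/PS1 mice given distilled water, and 6 from wild-type (WT) mice given distilled water. APP/PS1 mice carry transgenes for human amyloid precursor protein and presenilin with familial Alzheimer's disease mutations and deposit amyloid in the cortex. Trazodone is an antidepressant that acts on serotonin receptors and the serotonin transporter. The sample titles of all 3 groups carry the same duration of 2 weeks. Neither the transgenic line nor the dose, age or sex is given in the sources used here. The libraries include no WT mice given trazodone. The title of the series names soluble ST2 as what trazodone was meant to change.

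IL-33 is stored in the nucleus, in the brain mostly of astrocytes and oligodendrocytes, and is released when cells are damaged. It binds ST2, the product of Il1rl1, which signals together with IL-1 receptor accessory protein (Il1rap). Il1rl1 gives rise to a membrane receptor and, through a shorter transcript, to a soluble form that binds IL-33 without signalling. IL-1 alpha and IL-1 beta signal through Il1r1 with the same accessory protein and are blocked by the antagonist Il1rn. NLRP3 is a sensor that activates caspase-1, which cleaves the precursors of IL-1 beta and IL-18.

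The libraries differed in ways other than these genes. Depth, estimated from the smallest step between values, was 33.6 M to 36.8 M fragments in APP/PS1 trazodone, 30.6 M to 32.0 M in APP/PS1 water and 32.5 M to 33.5 M in WT water. Mitochondrially encoded genes took 9.90 ± 0.846% of TPM in APP/PS1 trazodone, 13.8 ± 1.06% in APP/PS1 water and 10.3 ± 1.39% in WT water (SD, n = 4, 3 and 6). The slope of log2 expression on gene GC content per 10 percentage points was 0.0881 ± 0.0506, -0.195 ± 0.0365 and 0.0390 ± 0.0493 in the same order of groups. APP/PS1 water therefore differed from both other groups in each of these measures. The summed TPM of 12 microglial marker genes was 829 to 1033 in APP/PS1 trazodone, 925 to 1218 in APP/PS1 water and 304 to 376 in WT water, and that of 10 astrocyte markers was 3275 to 3589, 3090 to 3494 and 2097 to 2424. Within the astrocyte sum, Gfap alone averaged 1054, 946 and 152 TPM in the same order of groups. In whole cortex, more cells of a type and more RNA per cell cannot be told apart.

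In the cortex of APP/PS1 mice given water, Il33, Il18, Il1a, Il1b and Nlrp3 were higher than in WT cortex. With trazodone, Il33 and Il18 were lower than in APP/PS1 mice given water, whereas Nlrp3 was still higher than in WT. Il1rl1 was low in every library and was highest in the 3 APP/PS1 water libraries. The 8 genes that averaged at least 0.5 TPM were tested with limma, a linear model with moderated variances, on log2(TPM + 0.5) across 18612 genes, and a gene was called at a Benjamini-Hochberg adjusted p under 0.05. In APP/PS1 water against WT water, 5 of the 8 were called higher and 0 lower, where 6.19% of all genes tested were called higher and 17.5% lower. Il1b, 1 of the 5, reached the 0.5 TPM minimum only through the APP/PS1 libraries, where it is high. Il1b is also among the genes counted below as lying above all of WT water. In APP/PS1 trazodone against APP/PS1 water, 2 of the 8 were called lower and 0 higher, against 3.92% and 12.5% of all genes tested. In APP/PS1 trazodone against WT water, 1 of the 8 was called higher and 0 lower, against 1.97% and 0.258% of all genes tested. All libraries of APP/PS1 water lay above all of WT water for 5 of the 8 genes and below for 0, against 6.55% and 16.5% of all genes tested. The trazodone libraries lay below all of APP/PS1 water for 2 of the 8 and above for 0, against 8.35% and 18.1%, and above all of WT water for 2 of the 8 and below for 0, against 3.25% and 1.83%. The count of 5 called became 2 without APP/PS1 water replicate 1 and 3 without APP/PS1 water replicate 2, the count of 2 became 1 without trazodone replicate 2 or APP/PS1 water replicate 1 or 2, and the count of 1 became 0 without trazodone replicate 1, 2 or 4 or WT replicate 3 or 4. Over all genes the calls were 1153 higher and 3260 lower in APP/PS1 water against WT water and 2319 higher and 730 lower in APP/PS1 trazodone against APP/PS1 water, and with median-ratio scaling they were 1972 and 2095, and 1665 and 1337. The median log2 fold change of the 8 genes was 0.50, -0.19 and 0.19 in these comparisons, and that of all genes tested was -0.10, 0.07 and -0.04. These comparisons share libraries: APP/PS1 water enters the first and the second, WT water the first and the last, and APP/PS1 trazodone the second and the last. The labels do not say whether each library is a separate mouse, so the p-values measure the spread between these libraries. Il1rl1 and Il1rn averaged under 0.5 TPM and were compared by an exact permutation test of the libraries.

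**Figure D1:**
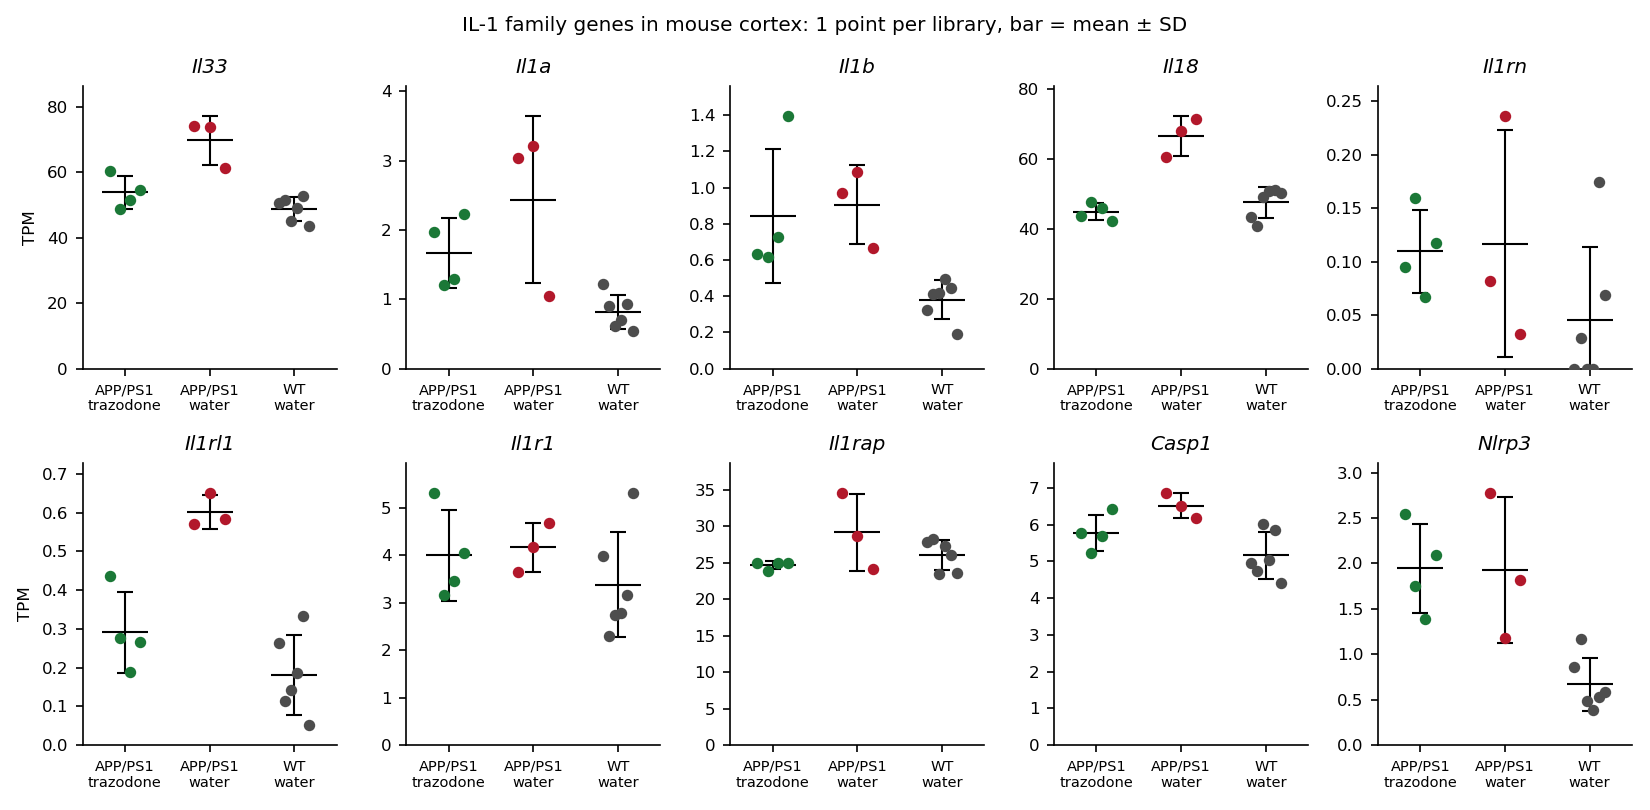
TPM (y axis, starting at 0) of the 10 genes in each library of APP/PS1 trazodone, APP/PS1 water and WT water (x axis). Points are libraries and bars are the mean ± SD of 4, 3 and 6 libraries. Il33, Il18 and Il1rl1 have all 3 APP/PS1 water points above every other point, and Nlrp3 has both APP/PS1 groups above all 6 WT points.

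Because TPM is scaled for length, levels can be set side by side between genes. In APP/PS1 water the order of mean TPM was Il33 (69.7 ± 7.37), Il18 (66.6 ± 5.62), Il1rap (29.1 ± 5.23), Casp1 (6.52 ± 0.345), Il1r1 (4.17 ± 0.511), Il1a (2.43 ± 1.21), Nlrp3 (1.93 ± 0.804), Il1b (0.906 ± 0.218), Il1rl1 (0.602 ± 0.0431) and Il1rn (0.117 ± 0.106) (SD, n = 3). Il33 and Il18 did not differ beyond their spread in this group, nor did Il1a and Nlrp3. The ligand Il33 averaged 53.8 TPM in APP/PS1 trazodone, 69.7 TPM in APP/PS1 water and 48.7 TPM in WT water, while its receptor chain Il1rl1 averaged 0.291, 0.602 and 0.182 TPM.

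Il33 (chr19:29925114-29960718, plus strand, GRCm38, GENCODE M21) encodes the alarmin IL-33. It had 60.5, 48.7, 51.6 and 54.5 TPM in the 4 APP/PS1 trazodone libraries and 74.0, 73.9 and 61.2 TPM in the 3 APP/PS1 water libraries, against a lowest of 43.6, a median of 49.7 and a highest of 52.8 TPM in the 6 WT water libraries. All 3 APP/PS1 water libraries lay above every other library, and the trazodone libraries overlapped WT. Il33 rose in APP/PS1 water against WT water by 0.51 ± 0.09 (log2 fold change ± SE, limma adjusted p = 0.00109). It fell in APP/PS1 trazodone against APP/PS1 water by 0.37 ± 0.10 on the log2 scale (limma adjusted p = 0.0183). APP/PS1 trazodone differed from WT water by 0.14 with a 95% interval of -0.03 to 0.31 (limma adjusted p = 0.485). The call with trazodone ended after a correction of each library for GC content and transcript length, with a log2 fold change of -0.25 (adjusted p = 0.162), and without 1 of 3 libraries: -0.32 without trazodone replicate 2 (adjusted p = 0.0572), -0.32 without APP/PS1 water replicate 1 (adjusted p = 0.0703) and -0.32 without APP/PS1 water replicate 2 (adjusted p = 0.0776). Il33 in APP/PS1 water against WT water remained called with the correction, at 0.41 (adjusted p = 0.00802).

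The 250 bases upstream of each transcription start that RefSeq gives (GRCm38.p6) are shown for Il33, whose level fell with trazodone, for Il18, which moved with it, for Il1rl1, whose distal start is known in mice for use in blood-derived cells and whose proximal start for use in fibroblasts, and for Nlrp3, which was not called with trazodone. All are on the plus strand. Capitals mark TATAAA (the TATA box) in Il33 and, as its reverse complement, in Il18, GATAAG (the motif of GATA factors, added after the values were seen) in Il1rl1, and, in Nlrp3, a match to the NF-kappa-B consensus in the upstream window and GAGGAA or its reverse complement (the core of PU.1 and other ETS factor sites) in the other.
Il33 upstream start, chr19:29924863-29925112: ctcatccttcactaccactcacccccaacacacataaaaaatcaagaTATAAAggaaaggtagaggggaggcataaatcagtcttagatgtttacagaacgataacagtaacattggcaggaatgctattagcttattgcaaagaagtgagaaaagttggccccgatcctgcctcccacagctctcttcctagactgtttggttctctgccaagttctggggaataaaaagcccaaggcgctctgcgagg
Il33 start within the gene, chr19:29945540-29945789: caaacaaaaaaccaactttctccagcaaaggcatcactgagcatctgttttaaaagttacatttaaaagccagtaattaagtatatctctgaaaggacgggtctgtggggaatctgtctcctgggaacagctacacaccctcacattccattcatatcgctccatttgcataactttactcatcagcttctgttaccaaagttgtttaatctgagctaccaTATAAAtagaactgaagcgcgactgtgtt
Il18, chr9:50554450-50554699: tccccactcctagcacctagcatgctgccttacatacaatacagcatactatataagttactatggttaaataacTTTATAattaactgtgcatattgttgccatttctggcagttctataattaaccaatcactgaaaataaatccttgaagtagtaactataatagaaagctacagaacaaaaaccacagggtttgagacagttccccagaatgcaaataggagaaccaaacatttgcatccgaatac
Il1rl1 distal start, chr1:40429320-40429569: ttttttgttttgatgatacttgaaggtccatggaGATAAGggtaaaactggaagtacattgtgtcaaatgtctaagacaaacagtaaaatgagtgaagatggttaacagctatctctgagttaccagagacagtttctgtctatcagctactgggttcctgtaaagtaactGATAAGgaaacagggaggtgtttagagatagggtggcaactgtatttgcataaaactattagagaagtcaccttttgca
Il1rl1 proximal start, chr1:40439379-40439628: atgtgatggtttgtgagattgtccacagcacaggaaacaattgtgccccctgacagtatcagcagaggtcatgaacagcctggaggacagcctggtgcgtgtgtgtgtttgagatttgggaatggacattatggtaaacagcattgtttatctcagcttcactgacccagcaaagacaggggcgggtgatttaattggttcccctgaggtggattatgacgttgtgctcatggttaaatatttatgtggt
Nlrp3 upstream start, chr11:59541319-59541568: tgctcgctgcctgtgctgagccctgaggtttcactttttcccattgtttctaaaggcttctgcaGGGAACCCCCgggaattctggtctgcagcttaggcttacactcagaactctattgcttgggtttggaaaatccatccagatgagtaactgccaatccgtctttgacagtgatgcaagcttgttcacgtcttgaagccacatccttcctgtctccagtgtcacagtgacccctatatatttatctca
Nlrp3 start within the gene, chr11:59542436-59542685: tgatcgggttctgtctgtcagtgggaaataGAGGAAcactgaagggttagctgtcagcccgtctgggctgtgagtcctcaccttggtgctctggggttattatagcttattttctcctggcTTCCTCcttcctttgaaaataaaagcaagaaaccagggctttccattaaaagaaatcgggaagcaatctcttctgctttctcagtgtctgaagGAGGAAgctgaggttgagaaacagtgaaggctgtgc
Both strands were searched over 16 windows of the 10 genes and over all 32851 such windows in the genome table. TATAAA lay in 5 of the 16 windows and in 12.4% of all windows, GAGGAA in 3 of 16 and in 23.3%, and GATAAG in 1 of 16 and in 6.55%. The NF-kappa-B consensus lay in 3 of 16 and in 17.6%, TGAGTCA (AP-1) in 2 of 16 and in 4.46%, and CACGTG (the E-box) in 1 of 16 and in 6.02%. The proximal Il1rl1 window held none of the 6 motifs. A match describes the letters in these windows only.

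Il18 (chr9:50554827-50581840, plus strand) encodes IL-18, a cytokine made as a precursor that caspase-1 cleaves. It had 43.7, 47.7, 46.0 and 42.2 TPM in the APP/PS1 trazodone libraries and 60.4, 67.9 and 71.4 TPM in the APP/PS1 water libraries, against a lowest of 40.8, a median of 49.5 and a highest of 51.2 TPM in the WT water libraries. The APP/PS1 water libraries all lay above the rest, and the trazodone libraries lay within the WT range. Il18 rose in APP/PS1 water against WT water by 0.48 ± 0.09 (log2 fold change ± SE, limma adjusted p = 0.00119) and fell in APP/PS1 trazodone against APP/PS1 water by 0.56 ± 0.09 on the log2 scale (limma adjusted p = 0.00146). With the GC content and length correction these values were 0.44 and -0.52 (adjusted p = 0.00355 and 0.00649). Against WT water, APP/PS1 trazodone differed by -0.08 with a 95% interval of -0.25 to 0.09 (limma adjusted p = 0.7105). Bco2, a carotenoid-cleaving enzyme gene, overlaps Il18 on the opposite strand, and whether the counting used strand is not stated in the sources used here, so reads of the overlap cannot be told apart. Bco2 averaged 4.26 ± 0.823 TPM in APP/PS1 trazodone, 5.14 ± 0.961 TPM in APP/PS1 water and 3.08 ± 0.595 TPM in WT water (SD, n = 4, 3 and 6), a level far under that of Il18. Bco2 was itself called higher in APP/PS1 water against WT water, at 0.66 ± 0.18 (limma adjusted p = 0.0173). With trazodone it was not called against APP/PS1 water (-0.25 ± 0.19, limma adjusted p = 0.435). The part of shared reads in either gene was not tested.

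Il1rl1 (chr1:40429570-40465415, plus strand) encodes ST2. It had 0.437, 0.275, 0.188 and 0.265 TPM in the APP/PS1 trazodone libraries and 0.571, 0.651 and 0.583 TPM in the APP/PS1 water libraries, against a lowest of 0.0514, a median of 0.164 and a highest of 0.333 TPM in the WT water libraries. The APP/PS1 water libraries lay above all others, and the trazodone libraries overlapped WT. These levels stand for few reads: from the depth and the longest annotated transcript of 5302 bases, roughly 11.99 to 29.6 fragments in a trazodone library, 34.0 to 41.9 in an APP/PS1 water library and 3.18 to 20.5 in a WT library. Il1rl1 in APP/PS1 water against WT water differed by 0.71 on the log2(TPM + 0.5) scale, with an exact two-sided permutation p = 0.0119, the smallest that 84 assignments of the labels allow. In a limma fit with no TPM minimum, Il1rl1 had a log2 fold change of 0.71 ± 0.14 (adjusted p = 0.00566), where 2.98% of the 36008 genes in that fit were called higher and 7.3% lower. The difference between APP/PS1 trazodone and APP/PS1 water was -0.49, with an exact two-sided permutation p = 0.0571, where 35 assignments allow no p below 0.0286, and a limma adjusted p = 0.0773 in the fit with no minimum, where 1.43% of genes were called lower and 5.08% higher. With the GC content and length correction and a minimum of 0.1 TPM the values were 0.68 (limma adjusted p = 0.0223) and -0.39 (limma adjusted p = 0.313). APP/PS1 trazodone differed from WT water by 0.22 (exact permutation p = 0.133), and by 0.28 without WT replicate 5 (exact permutation p = 0.0397). The single value per gene does not separate the transcript of the membrane receptor from that of soluble ST2, so none of these differences is a measurement of soluble ST2.

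Il1rap (chr16:26581704-26730117, plus strand), the accessory chain shared by the IL-33, IL-1 and IL-36 receptors, had 24.9, 23.8, 24.9 and 24.9 TPM in the APP/PS1 trazodone libraries and 34.6, 28.7 and 24.1 TPM in the APP/PS1 water libraries, against a lowest of 23.4, a median of 26.6 and a highest of 28.2 TPM in the WT water libraries. The trazodone libraries were close together, the APP/PS1 water libraries were spread widely, and all groups overlapped. Il1rap passed the test neither in APP/PS1 water against WT water (0.15, 95% interval -0.07 to 0.36, limma adjusted p = 0.321) nor in APP/PS1 trazodone against APP/PS1 water (-0.22, 95% interval -0.46 to 0.01, limma adjusted p = 0.189). In APP/PS1 water against WT water the difference was 0.02 without APP/PS1 water replicate 1 and 0.27 without replicate 3 (limma adjusted p = 0.917 and 0.0664). With trazodone it was -0.09 without APP/PS1 water replicate 1, -0.35 and called without replicate 3 (limma adjusted p = 0.0410), and -0.08 with the GC content and length correction. As with Il1rl1, the value does not separate the membrane from the soluble form of this chain.

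Nlrp3 (chr11:59541568-59566956, plus strand) encodes the inflammasome sensor. It had 2.55, 1.75, 1.39 and 2.09 TPM in the APP/PS1 trazodone libraries and 2.78, 1.18 and 1.82 TPM in the APP/PS1 water libraries, against a lowest of 0.390, a median of 0.560 and a highest of 1.17 TPM in the WT water libraries. All 7 APP/PS1 libraries lay above all 6 WT libraries, and the trazodone libraries overlapped the APP/PS1 water libraries. Nlrp3 rose in APP/PS1 water against WT water by 1.03 ± 0.25 (log2 fold change ± SE, limma adjusted p = 0.00883). This call ended without APP/PS1 water replicate 1 (0.79, adjusted p = 0.0538). Nlrp3 was also higher in APP/PS1 trazodone against WT water, by 1.07 ± 0.23 (limma adjusted p = 0.0224). This second call ended in the fit with no TPM minimum (1.07, adjusted p = 0.0675) and without any 1 of 5 libraries: trazodone replicate 1 (0.96, adjusted p = 0.101), trazodone replicate 2 (1.11, adjusted p = 0.0510), trazodone replicate 4 (1.04, adjusted p = 0.0783), WT replicate 3 (1.03, adjusted p = 0.0539) and WT replicate 4 (1.003, adjusted p = 0.0502). With trazodone, Nlrp3 differed from APP/PS1 water by 0.04, with a 95% interval of -0.54 to 0.62 (limma adjusted p = 0.937).

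Casp1 (chr9:5298517-5307265, plus strand), the protease activated by NLRP3, had 5.76, 5.23, 5.70 and 6.42 TPM in the APP/PS1 trazodone libraries and 6.87, 6.51 and 6.18 TPM in the APP/PS1 water libraries, against a lowest of 4.40, a median of 5.003 and a highest of 6.02 TPM in the WT water libraries. The APP/PS1 water libraries lay above all WT libraries, but the limma test did not call Casp1 (0.31 ± 0.12, adjusted p = 0.0651). It was called without WT replicate 3 (0.36, adjusted p = 0.0458) and with median-ratio scaling (0.41, adjusted p = 0.0256), and was 0.18 with the GC content and length correction. APP/PS1 trazodone differed from APP/PS1 water by -0.16 with a 95% interval of -0.43 to 0.11 (limma adjusted p = 0.424).

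Il1a (chr2:129299610-129309972, minus strand), which encodes IL-1 alpha, had 1.97, 1.20, 1.29 and 2.23 TPM in the APP/PS1 trazodone libraries and 3.04, 3.21 and 1.04 TPM in the APP/PS1 water libraries, against a lowest of 0.537, a median of 0.799 and a highest of 1.21 TPM in the WT water libraries. APP/PS1 water replicate 3 lay within the WT range, so the groups overlapped. Il1a rose in APP/PS1 water against WT water by 1.07 ± 0.28 (log2 fold change ± SE, limma adjusted p = 0.0129), and the call rested on the other 2 libraries: it ended without replicate 1 (0.88, adjusted p = 0.0669) and without replicate 2 (0.85, adjusted p = 0.0802). With trazodone, Il1a differed from APP/PS1 water by -0.36 with a 95% interval of -1.01 to 0.29 (limma adjusted p = 0.468). The difference was -0.77 without APP/PS1 water replicate 3 (limma adjusted p = 0.0651), -0.17 without replicate 1 and -0.14 without replicate 2. Il1a differed from WT water by 0.71 (limma adjusted p = 0.225).

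Il1b (chr2:129364570-129371139, minus strand), which encodes IL-1 beta, had 0.634, 0.617, 0.728 and 1.39 TPM in the APP/PS1 trazodone libraries and 0.969, 1.09 and 0.663 TPM in the APP/PS1 water libraries, against a lowest of 0.189, a median of 0.416 and a highest of 0.495 TPM in the WT water libraries. All 7 APP/PS1 libraries lay above all WT libraries. Il1bos, a transcript annotated antisense to Il1b, averaged 0.145 TPM in APP/PS1 trazodone, 0.154 TPM in APP/PS1 water and 0.141 TPM in WT water, and its reads in the overlap cannot be told apart from those of Il1b. The mean of Il1b in WT was 0.381 TPM, so it reached the 0.5 TPM minimum only through the APP/PS1 libraries, and its levels stand for a median of roughly 11.4 fragments in a trazodone library, 14.8 in an APP/PS1 water library and 6.64 in a WT library. Il1b rose in APP/PS1 water against WT water by 0.67 ± 0.21 (log2 fold change ± SE, limma adjusted p = 0.0331). The call ended with the GC content and length correction (0.66, adjusted p = 0.0636) and without APP/PS1 water replicate 1 (0.64, adjusted p = 0.0945), APP/PS1 water replicate 2 (0.58, adjusted p = 0.132), WT replicate 1 (0.65, adjusted p = 0.0572) or WT replicate 6 (0.60, adjusted p = 0.0516). APP/PS1 trazodone differed from APP/PS1 water by -0.09 with a 95% interval of -0.58 to 0.40, and from WT water by 0.58 (limma adjusted p = 0.834 and 0.178).

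Il1r1 (chr1:40225080-40317257, plus strand), the signalling receptor of both IL-1 forms, had 5.32, 3.17, 3.46 and 4.04 TPM in the APP/PS1 trazodone libraries and 3.66, 4.17 and 4.68 TPM in the APP/PS1 water libraries, against a lowest of 2.30, a median of 2.97 and a highest of 5.32 TPM in the WT water libraries. The groups overlapped, and limma called none of the differences: 0.30 in APP/PS1 water against WT water (95% interval -0.16 to 0.77) and -0.07 in APP/PS1 trazodone against APP/PS1 water (95% interval -0.57 to 0.43). Il1rn (chr2:24336853-24351494, plus strand), the antagonist of that receptor, had 0.0948, 0.159, 0.0671 and 0.118 TPM in the APP/PS1 trazodone libraries and 0.0815, 0.236 and 0.0323 TPM in the APP/PS1 water libraries, and was listed at 0 in 3 of the 6 WT water libraries, with a highest of 0.174 TPM there. At roughly 2.06 to 5.14 fragments in a trazodone library and 1.03 to 7.31 in an APP/PS1 water library, counting error is large, and no difference in Il1rn passed the test with all libraries. The difference was 0.17 in APP/PS1 water against WT water (exact permutation p = 0.226) and 0.17 in APP/PS1 trazodone against WT water (exact permutation p = 0.124), and without WT replicate 5 these were 0.24 and 0.23 (exact permutation p = 0.0357 and 0.0238).

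**Figure D2:**
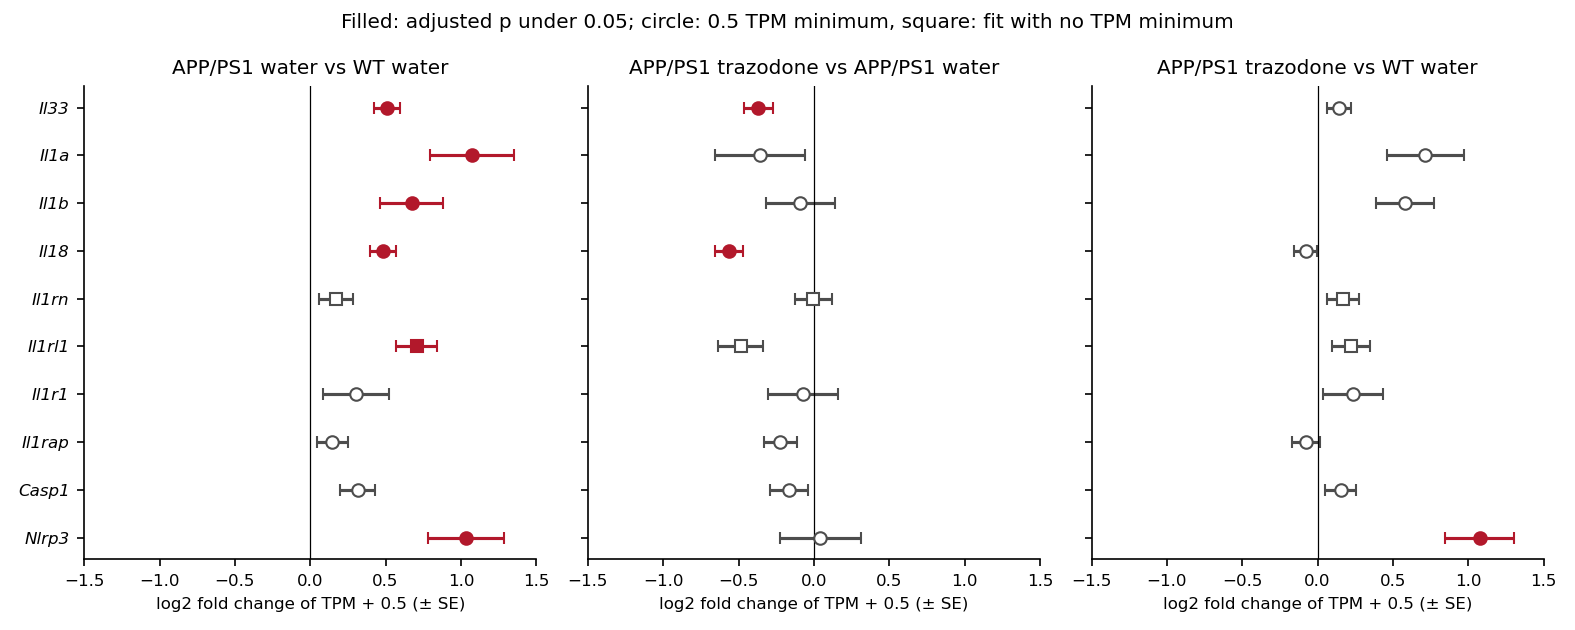
Log2 fold change of TPM + 0.5 (x axis, ± SE) of the 10 genes (rows) in the 3 comparisons. Filled symbols have a limma adjusted p under 0.05, and squares come from the fit with no TPM minimum. Il33 and Il18 are called on opposite sides of 0 in the left and the middle comparison, while Nlrp3 is called higher on the left and on the right.

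The GC slope set the APP/PS1 water libraries apart from both other groups, so the fold changes were set beside those after the correction for GC content and transcript length. After it, 4 of the 8 genes were called higher for APP/PS1 water against WT water (Il33, Il18, Il1a and Nlrp3), where 6.38% of the genes in that fit were called higher and 6.3% lower. For APP/PS1 trazodone against APP/PS1 water 1 of the 8 was called lower (Il18), where 1.58% were called lower and 2.61% higher. Nlrp3 in APP/PS1 trazodone against WT water was called at 1.09 (limma adjusted p = 0.0183), where 2.23% of genes were called higher and 0.378% lower.

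**Figure D3:**
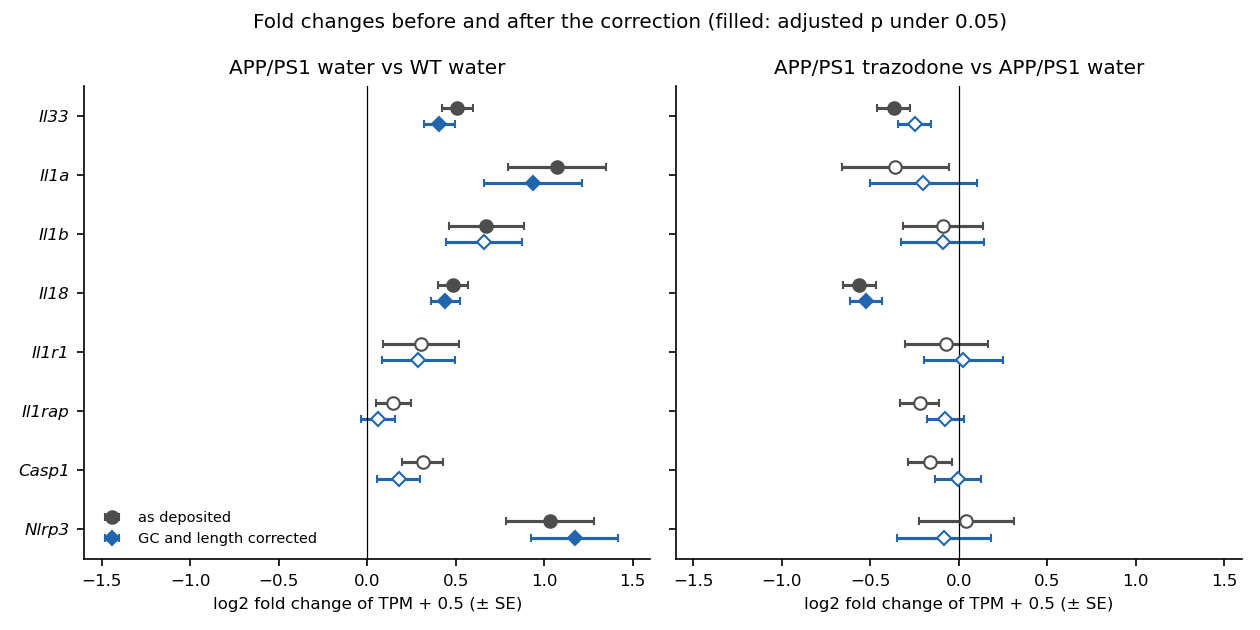
Log2 fold change of TPM + 0.5 (x axis, ± SE) of the 8 genes that reached 0.5 TPM (rows), from the deposited TPM (circles) and after the GC content and length correction (diamonds), in 2 comparisons. Filled symbols have a limma adjusted p under 0.05. Il18 is filled on both scales in both panels, and Il33 with trazodone is filled only for the deposited TPM.

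Other genes of the pathway were taken from lists by role. Of 8 further receptors and soluble antagonists, 6 reached 0.5 TPM. Il1rl2, the IL-36 receptor chain, rose in APP/PS1 water against WT water by 0.58 ± 0.17 (limma adjusted p = 0.0247), and none of the 6 was called in the other comparisons. Of all genes tested, 6.19% were called higher and 17.5% lower in APP/PS1 water against WT water. The call of Il1rl2 ended without APP/PS1 water replicate 2 or 3 (limma adjusted p of at most 0.0878). The most abundant of them, Il1rapl1, a synaptic member of the family, had -0.33 ± 0.17 in APP/PS1 trazodone against APP/PS1 water (limma adjusted p = 0.206). The chains of the IL-18 receptor were near the bottom of the scale: Il18r1 averaged 0.0874, 0.0486 and 0.0295 TPM and Il18rap 0.244, 0.285 and 0.0871 TPM in APP/PS1 trazodone, APP/PS1 water and WT water. Of the other ligands of the family, Il36a and Il1f10 were listed at 0 in all 13 libraries and Il36b and Il36g in 12. Il36rn was not analysed here.

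Of 14 genes between the adaptor MyD88 and the kinase TAK1, all 14 were tested. In APP/PS1 water against WT water 1 was called lower and 0 higher, against 17.5% and 6.19% of all genes tested, and in APP/PS1 trazodone against APP/PS1 water 1 was called lower and 0 higher, against 3.92% and 12.5%; with 14 genes these counts are near those shares. Tollip, an inhibitor of IL-1 receptor signalling, was lower in APP/PS1 water against WT water by a log2 fold change of -0.17 ± 0.05 (limma adjusted p = 0.0296). Peli1, a ubiquitin ligase of the pathway, was lower in APP/PS1 trazodone against APP/PS1 water, at -0.32 ± 0.10 (limma adjusted p = 0.0363). With the GC content and length correction these values were -0.06 and -0.10, and neither was called (limma adjusted p = 0.554 and 0.536). Their calls also ended without any 1 of 5 libraries for Tollip (APP/PS1 water 1 and 2, WT 1, 2 and 5) and of 6 for Peli1 (trazodone 2, 3 and 4 and every APP/PS1 water library), with adjusted p of at most 0.0966 and 0.0906. Ube2n, the most abundant of the uncalled genes and a ubiquitin-conjugating enzyme, had -0.15 ± 0.32 and 0.31 ± 0.35 in these comparisons.

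Of 14 inflammasome partners, 10 were tested. In APP/PS1 water against WT water 3 of the 10 were called higher and 0 lower, against 6.19% and 17.5% of all genes tested. Casp8, a protease of cell death and cytokine processing, was at 0.90 ± 0.19 (limma adjusted p = 0.00394). The DNA sensor Aim2 was at 0.52 ± 0.15 (limma adjusted p = 0.0196). Casp4, an inflammatory caspase gene beside Casp1, was at 0.62 ± 0.20 (limma adjusted p = 0.0397). Casp8 was called in all 28 alternatives, with an adjusted p of at most 0.0218 when 1 library was left out. Aim2 and Casp4 lost the call with the GC content and length correction, at 0.43 and 0.41 (limma adjusted p = 0.0626 and 0.194). Aim2 also lost it without APP/PS1 water replicate 2 (limma adjusted p = 0.118), and Casp4 without any 1 of 8 libraries, every APP/PS1 water library among them (limma adjusted p of at most 0.119). Casp8 had 2.82 to 4.63 TPM in APP/PS1 trazodone, 4.13 to 5.07 TPM in APP/PS1 water and 1.65 to 3.02 TPM in WT water. Between APP/PS1 trazodone and WT water 2 of the 10 were called higher and 0 lower, against 1.97% and 0.258% of all genes tested. These were Casp4 (0.84 ± 0.19) and Aim2 (0.55 ± 0.13), with limma adjusted p = 0.0288 and 0.0486. The calls ended without any 1 of 6 libraries for Casp4 and of 10 for Aim2. Between APP/PS1 trazodone and APP/PS1 water 1 of the 10 was called higher and 0 lower, near the 12.5% and 3.92% of all genes tested. This was Card19, a mitochondrial protein with a caspase recruitment domain, at 0.50 ± 0.13 (limma adjusted p = 0.0203). Card19 was 0.18 and not called after the correction. It also lost the call without trazodone replicate 2 or APP/PS1 water replicate 2 or 3 (limma adjusted p of at most 0.0891). Nek7, which binds NLRP3, had -0.94 ± 0.49 in APP/PS1 trazodone against APP/PS1 water (limma adjusted p = 0.223).

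**Figure D4:**
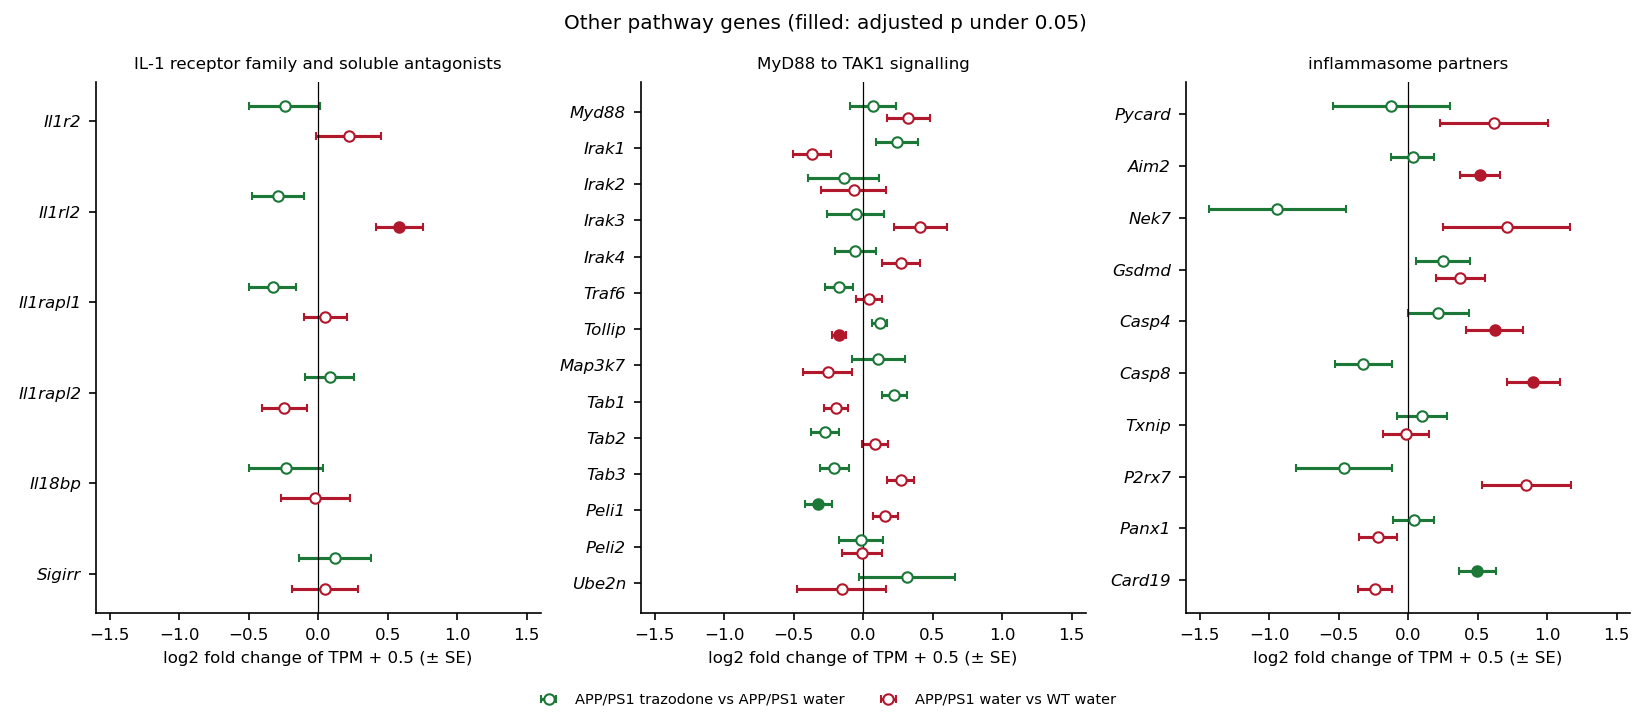
Log2 fold change of TPM + 0.5 (x axis, ± SE) of the tested receptor, signalling and inflammasome genes other than the 10 (rows), for APP/PS1 trazodone against APP/PS1 water (green) and APP/PS1 water against WT water (red). Filled points have a limma adjusted p under 0.05. Casp8, at 0.90, is the gene furthest to the right among the filled points.

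Markers of cells that could carry these transcripts were counted in the same way. Of 12 microglial markers, 9 rose and 0 fell in APP/PS1 water against WT water, 9 rose in APP/PS1 trazodone against WT water, and 0 rose and 1 fell in APP/PS1 trazodone against APP/PS1 water. Itgax, Clec7a and Cst7 are among the 9 in both comparisons with WT water, where they averaged 0.356, 0.403 and 0.291 TPM. They reached the 0.5 TPM minimum only through the APP/PS1 libraries, where they are high. Of 10 astrocyte markers, 5 rose in APP/PS1 water against WT water, 3 rose in APP/PS1 trazodone against WT water, and 1 rose and 1 fell in APP/PS1 trazodone against APP/PS1 water. Of all genes tested, 6.19%, 1.97% and 12.5% were called higher in these comparisons, and 17.5%, 0.258% and 3.92% lower. The microglial and the astrocyte sums were both high in the same 7 libraries as Nlrp3 and Il1b, which are all the APP/PS1 libraries. The summed TPM of 10 oligodendrocyte markers was 2589 to 3493 in APP/PS1 trazodone, 1800 to 2766 in APP/PS1 water and 2025 to 3573 in WT water. Of these, Mbp, a myelin protein gene, was lower in APP/PS1 water against WT water (-0.74 ± 0.20) and higher in APP/PS1 trazodone against APP/PS1 water (0.94 ± 0.22), with limma adjusted p = 0.0177 and 0.0107. Of 8 neuronal markers, the same 2 were called in these comparisons: Rbfox3, a neuronal splicing factor gene, at -0.69 ± 0.08 and 0.62 ± 0.08, and Slc17a7, a glutamate transporter gene, at -0.49 ± 0.09 and 0.39 ± 0.10. All marker counts and values here come from the deposited TPM, without the GC content and length correction. APP/PS1 water differed from both other groups in GC slope, and its part in these marker differences was not tested. The summed TPM of the 8 was 5176 to 5605 in APP/PS1 trazodone, 4930 to 5517 in APP/PS1 water and 5285 to 5886 in WT water. None of 8 endothelial and 6 fibroblast markers was called. None of 6 border macrophage markers was called in any comparison, with sums of 13.2 to 15.8, 10.7 to 20.2 and 9.23 to 14.3 TPM. The part of any of these cell types in the levels of the 10 genes was not tested. The list for the mast cells, regulatory T cells and group 2 innate lymphoid cells that carry ST2 held 11 genes. Foxp3, a regulatory T cell gene, was not matched to an entry and was not analysed here. Of the 10 genes with an entry, Kit alone reached 0.5 TPM, at a mean of 33.6 TPM over the libraries, and it was not called. Which cells the Kit transcripts came from was not tested. Il7r, Il5 and Areg averaged 0.353, 0.272 and 0.231 TPM, within the range of Il1rl1 itself, and were above 0 in every library except 2 for Areg. Fcer1a was at 0 in all 13 libraries, Cma1 in 11, Gata3 and Il13 in 9, Tpsb2 in 8 and Cpa3 in 5. Of 8 neutrophil and monocyte markers 3 reached 0.5 TPM and 0 were called.

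The genes whose centred log2 values over the 13 libraries lay closest to those of Il33, out of 16609 genes, were Asah1, which encodes acid ceramidase (root mean square difference 0.0988), Mob1a, a component of Hippo signalling (0.108), and Vps26a, a subunit of the retromer (0.109), against a spread of 0.229 for Il33 itself. Asah1 averaged 58.8 TPM in APP/PS1 trazodone, 75.1 TPM in APP/PS1 water and 54.8 TPM in WT water. The closest to Il18, a search added after the values were seen, were Zfp946 (0.0864), Mterf3 (0.0868) and Selenof (0.0948), against a spread of 0.243. Selenof, a selenoprotein of the endoplasmic reticulum, averaged 198 TPM in APP/PS1 trazodone, 275 TPM in APP/PS1 water and 199 TPM in WT water. These points share libraries and their GC slopes, so the likeness is a description.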

How the data were processed

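TPM and FPKM tables of 53832 entries were deposited for 13 libraries. The authors' TPM values are scaled by gene length and library total, and the deposited FPKM values, used for depth and as an alternative, rescale to them. The submitters' processing notes name fastp, STAR, DESeq2 and the build GRCm38 (mm10). The sources used here do not state the counting tool, its strand setting or which of the sequencers named ran each library. A difference in sequencer between the groups therefore cannot be told apart from genotype or treatment. Coordinates come from GENCODE M21 and promoters from RefSeq GRCm38.p6, matched by symbol for all 10 genes.

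Groups came from titles and treatments. The 18612 genes averaging 0.5 TPM or more entered 1 limma fit (limma 3.58.1, R 4.3.3; lmFit, eBayes with trend) of 3 groups on log2(TPM + 0.5), with Benjamini-Hochberg adjustment over all of them. Fold changes on this scale understate those of low genes. The fit was tested on simulated data. Il1rl1 and Il1rn were compared by exact two-sided permutation with unadjusted p. Depth was read from the single-fragment step of FPKM in 2428 single-exon genes of at least 1000 bases, and estimated fragments use the longest transcript, so they are rough. No library repeated another: the median absolute log2 difference between any 2 was at least 0.144. Alternatives were the pseudocount, minimum, scaling, FPKM, array weights, groups fitted, replicate blocks, a loess correction for GC content and length, and each library left out; the correction with a 0.1 TPM minimum was added after seeing the data. The 10 genes and the lists were chosen with earlier results of these data known. Named genes were all 10 and, per list and comparison, at most 4 called with the smallest p and 2 others with the highest mean TPM; the IL-18 receptor chains and the genes near 0 were named after their values were seen.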

Additional observations from a re-analysis of the deposited data

Results flagged for a closer look

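Of 20 sets of libraries tested (the 10 genes in APP/PS1 trazodone and in WT water), 2 held a library far from the others of its group, where chance gives about 1 in 20. Il1b had 1.39 TPM in APP/PS1 trazodone replicate 4, the highest of its group, with a gap to the nearest library of 0.858 of the group's range. Il1rap had 23.8 TPM in APP/PS1 trazodone replicate 2, the lowest of its group, with a gap of 0.946 of a narrow range.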

How the results depend on the processing

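Il33 and Il18 in APP/PS1 water against WT water, and Il18 in APP/PS1 trazodone against APP/PS1 water, kept direction and call under every alternative run. The 5 calls for APP/PS1 water against WT water were 2 to 6 with 1 library left out, the 2 called with trazodone were 1 to 3, and the 1 called in APP/PS1 trazodone against WT water was 0 to 1. With the GC content and length correction, at either minimum, 1 gene was called with trazodone; against WT water 0 were called with no TPM minimum and 0 with FPKM, where Nlrp3 did not reach the minimum. The cause was not tested.

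Whether replicate numbers pair the libraries was not settled. The deviations of same-numbered libraries correlated over 0.1 in 2 of 10 pairs for the numbers in the titles and in 2 of 10 for those in the library names. The mean correlation was 0.030 for same-numbered and -0.0068 for other pairs by title, and 0.010 and -0.0024 by library name. So few pairs cannot tell a weak pairing from none. With the replicate block on library numbers 3 genes passed for APP/PS1 water against WT water, without Il1a and Il1b (adjusted p = 0.0565 and 0.184), and 1 with trazodone, without Il33 (-0.35, adjusted p = 0.0686). With the block on title numbers 4, 2 and 0 were called in the 3 comparisons, without Il1b in APP/PS1 water and Nlrp3 in APP/PS1 trazodone against WT water (adjusted p = 0.0515 and 0.117).

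Il1rn without 1 library was 0.038 to 0.27 in APP/PS1 water against WT water and 0.13 to 0.23 in APP/PS1 trazodone against WT water, where Il1rl1 was 0.14 to 0.28. In APP/PS1 trazodone against APP/PS1 water, uncalled differences changed sign: Il1rn with a pseudocount of 0.1 (0.045; -0.10 to 0.13 without 1 library); Il1b (-0.27 to 0.0029 without 1 library); Il1r1 with the block on library numbers (0.014), the correction (0.024, and 0.016 with the 0.1 TPM minimum) and 1 library left out (-0.20 to 0.020); and Nlrp3 with median-ratio scaling (-0.011), quantile normalization (-0.00054), rescaling after removal of hemoglobin, mitochondrial and ribosomal protein genes (-0.0068), the correction (-0.085, and -0.078 with the 0.1 TPM minimum) and 1 library left out (-0.20 to 0.29). Low counts limit Il1rn, Il1rl1 and Il1b.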
